A study of Mus musculus with 8 samples.

Results

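The cell cycle and replication genes described here were 47 mouse genes of cell division, chosen by their symbols from the 36048 genes of a table of RNA levels. The choice used no rule on measured values, but earlier results of these data were known when it was made. The 47 genes fall into 5 genes of early G1 (D cyclins, Cdk4, Cdk6), 3 of cyclin E and its kinase, 4 transcription factors, 13 of DNA replication, 1 checkpoint kinase and 21 of mitosis. Their RNA was measured in 3 populations of mouse skeletal muscle: endothelial cells (EC1, EC2 and EC3), which line blood vessels, satellite cells (SC1 and SC3), the resident muscle stem cells, and single muscle fibres (SMF1, SMF2 and SMF3). EC and SC came from hindlimb muscles and were sorted by flow cytometry, about 100000 cells for each library. For each SMF library, 100 intact fibres were hand-picked from the extensor digitorum longus, a hindlimb muscle, once 3 h of waiting had let damaged fibres contract. The labels give no treatment, strain, age or sorting marker. Since population, muscle of origin and isolation differ together between fibres and sorted cells, their parts cannot be told apart. Whether numbered libraries came from separate animals is not stated, so the p-values given here reflect the spread between the libraries alone, which may be technical, and 1 sample, not named, missed the RNA integrity of the others. In bulk RNA, fewer dividing cells and less of the RNA in each cell cannot be told apart.

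In a dividing cell, D cyclins with CDK4 and CDK6 and then cyclin E with CDK2 phosphorylate the retinoblastoma protein and free E2F factors, which switch on genes of DNA replication. Later, cyclin A and cyclin B with CDK1 drive entry into mitosis, and MYBL2 and FOXM1, with the MuvB complex, switch on the genes of spindle, kinetochore and cytokinesis. Satellite cells of resting adult muscle are largely quiescent, adult endothelium divides rarely, and the nuclei of muscle fibres have left the cell cycle.

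Sequences before the start sites show the difference between the sets, and those below were chosen because their genes recur in the results. Replication genes are classical E2F targets, whereas many mitosis genes carry a short element called CHR (cell cycle genes homology region). Promoters of 37 of the 47 genes were matched by symbol in RefSeq (GRCm38.p6). For replication, 90 bases are shown of Mcm5 (chr8:75109330-75109419, plus strand) and Mcm6 (chr1:128359706-128359795, minus strand), with matches to an E2F word in capitals. For mitosis, the same length is shown of Cdk1 (chr10:69352913-69353002, minus strand), Mki67 (chr7:135716451-135716540, minus strand), Top2a (chr11:99024200-99024289, minus strand) and Ccnb2 (chr9:70421662-70421751, minus strand), with matches to the CHR word in capitals. All windows lie outside the RefSeq span of their gene and are written 5′ to 3′ on the strand of the gene. That of Ccnb2 lies 197 to 108 bases before the start site, and Ccnb2 has a further match that begins at base 5 after that site. Mcm6 and Top2a also hold matches outside the windows shown.
Mcm5: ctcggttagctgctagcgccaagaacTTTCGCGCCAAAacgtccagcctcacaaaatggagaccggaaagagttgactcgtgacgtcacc
Mcm6: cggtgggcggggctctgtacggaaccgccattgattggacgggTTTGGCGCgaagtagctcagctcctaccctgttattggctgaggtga
Cdk1: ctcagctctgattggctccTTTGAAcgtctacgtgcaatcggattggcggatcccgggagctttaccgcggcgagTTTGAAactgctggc
Mki67: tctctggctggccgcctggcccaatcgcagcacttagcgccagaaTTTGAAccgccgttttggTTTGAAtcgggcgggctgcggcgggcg
Top2a: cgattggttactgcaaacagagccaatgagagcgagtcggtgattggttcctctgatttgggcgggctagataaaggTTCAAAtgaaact
Ccnb2: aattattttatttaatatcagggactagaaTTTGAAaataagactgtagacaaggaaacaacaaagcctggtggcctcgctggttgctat

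The words searched for E2F were TTTGGCGC, TTTCGCGC, TTTCCCGC and TTTGCCGC, and for CHR TTTGAA, on both strands of 300 bases (250 before the start site and 50 after it). The E2F words overlap one another in Mcm5, where the capitals cover 2 matches. An E2F word was found in 6 of 11 replication genes with a promoter (54.5%) and in 1 of 17 mitosis genes (5.88%), against 2.6% of all 27025 genes with a promoter and 4.69% of those that passed the filter on low values described below. For CHR the order was turned round, with 12 of 17 mitosis genes (70.6%) and 1 of 11 replication genes (9.09%) against 20.2% of all genes and 13.8% of those that passed. The word CCAAT, which NF-Y binds, was found in 15 of 17 mitosis genes (88.2%), in 8 of 11 replication genes (72.7%) and in 41.1% of all genes. Other genes of the same pathways, listed for comparison, gave 11 of 34 for E2F among replication genes (32.4%) and 30 of 44 for CHR among mitosis genes (68.2%). A match is a description of these letters and not a measured site.

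**Figure D1:**
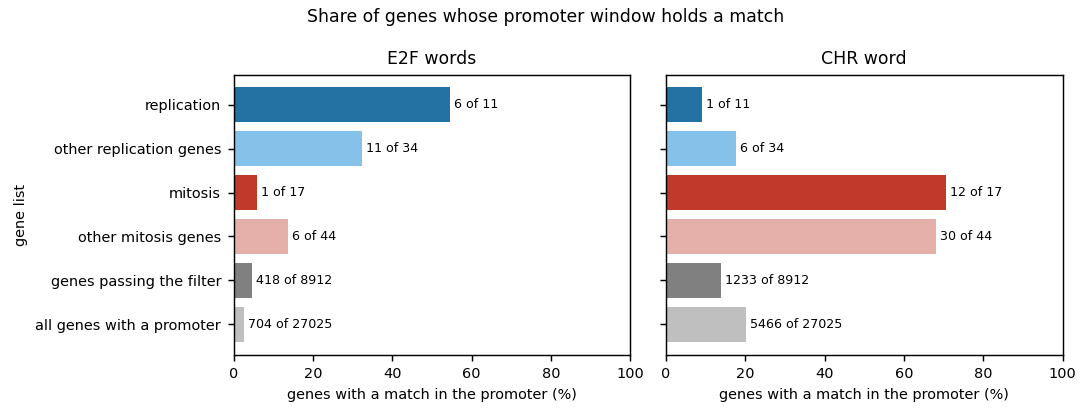
Share of genes (x axis, percent) whose promoter of 300 bases holds an E2F word (left) or the CHR word (right), by gene list, with the counts beside each bar. E2F words were found in 54.5% of the replication genes and the CHR word in 70.6% of the mitosis genes.

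Levels are FPKM, fragments scaled by transcript length and by the library total. The depth estimated from deposited coverage was 278 to 368 Mb of aligned sequence for EC and SC libraries and 525 to 581 Mb for SMF libraries. A single read of 50 bases on a transcript of 1 kb is thus worth 0.136 to 0.180 FPKM in the sorted cells and 0.0861 to 0.0952 in fibres, and many values below rest on few reads. The populations carried their defining markers. Summed FPKM of 7 endothelial genes lay between 1077 and 1102 in EC and at 23.6 and 17.0 in SC, and that of 7 satellite cell genes at 821 and 822 in SC and no higher than 4.19 in EC, where Pax7, Myod1, Calcr and Fgfr4 were listed at 0 in all 3 libraries. Fibre genes summed to 28090 or more in SMF and to 156 and 247 in SC. The libraries SC3 and EC2 stood apart. SC3 exceeded SC1 in 37 of the 47 cell cycle genes, and in 65.1% of all genes, and also in 7 of 7 fibre markers. EC2 lay below EC1 and EC3 in 32 of the 47, against 33.2% of all genes and 46.6% of those that passed the filter. It had 20071 genes above 0 where EC1 and EC3 had 24670 and 25139. Counts are therefore also given without SC3 and without EC2. Leaving out SC3 keeps SC1 as the only SC library, so the spread then comes from EC and SMF alone. What changes without SC3 is a description and not a measure of that library.

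Values were compared with limma on log2(FPKM + 1), and a gene was called where its p, adjusted by the Benjamini-Hochberg method, was under 0.05. The first fit took all 36048 genes, so that every cell cycle gene has a value. SC exceeded EC in 21 of 47 genes (10.8% of all genes were called higher), fell below EC in 1 (6.64% called lower) and was not called in 25. The median difference SC minus EC was 0.64 on the log2 scale, where the median of all genes was 0.14. Without SC3, 12 were higher and 2 lower, and without EC2 18 and 1. SC exceeded SMF in 37 genes (29.9% called higher) and fell below SMF in 0 (3.72% called lower), with a median of 1.13 against 0.39 for all genes. EC exceeded SMF in 14 (25.3% called higher), fell below it in 0 (4.8% called lower) and was not called in 33, with a median of 0.46 against 0.21. Without EC2 that count was 22. The comparisons with SMF share the fibre libraries, and the 2 with SC share the SC libraries.

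Ranges showed the same groups without a test. Every SC library exceeded every EC library in 27 of 47 genes (22.1% of all genes) and lay below in 1 (12.1%). Every SC library exceeded every SMF library in 45 (45.8%) and lay below in 0 (5.52%), and every EC library exceeded every SMF library in 31 (33.3%) and lay below in 0 (6.46%).

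A second fit tested only the 16700 genes that reached 1 FPKM in 2 or more libraries. It held 30 of the 47, of which 10 passed through the SC libraries alone, so its counts are descriptive. SC exceeded EC in 19 (21.2% called higher) and fell below in 1 (16.4% called lower). SC exceeded SMF in all 30 (56.5%; 8.57% called lower, 0 of these genes), and EC exceeded SMF in 18 (55.5%; 10.8% called lower, 0 of these genes). Log2 differences and adjusted p-values of the 47 genes below are from limma over all genes, unless the filtered fit is named. They understate changes of low values, and genes listed at 0 in a population are given as values without a fold. FPKM is relative to the whole library, and the median of the 16700 genes shifted with the scaling. The 3 other scalings used the median of ratios, the upper quartile, or the total left without the 50 most abundant genes. SC minus SMF had a median of 0.93 as deposited and of 0.21, 0.37 and 0.44 under these scalings. For EC minus SMF these medians were 0.85, 0.20, 0.28 and 0.55, and for SC minus EC 0.11, -0.01, 0.10 and -0.12. The split of all genes moved with them, from 9436 higher and 1431 lower in SC than SMF to 4583 and 3735 after median-of-ratios scaling, and from 3543 higher and 2745 lower in SC than EC to 2100 and 3278 without the most abundant genes. Among the 30 genes, the calls for SC over SMF were 23 higher and 1 lower, 25 and 0, and 24 and 0 under the 3 scalings.

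**Figure D2:**
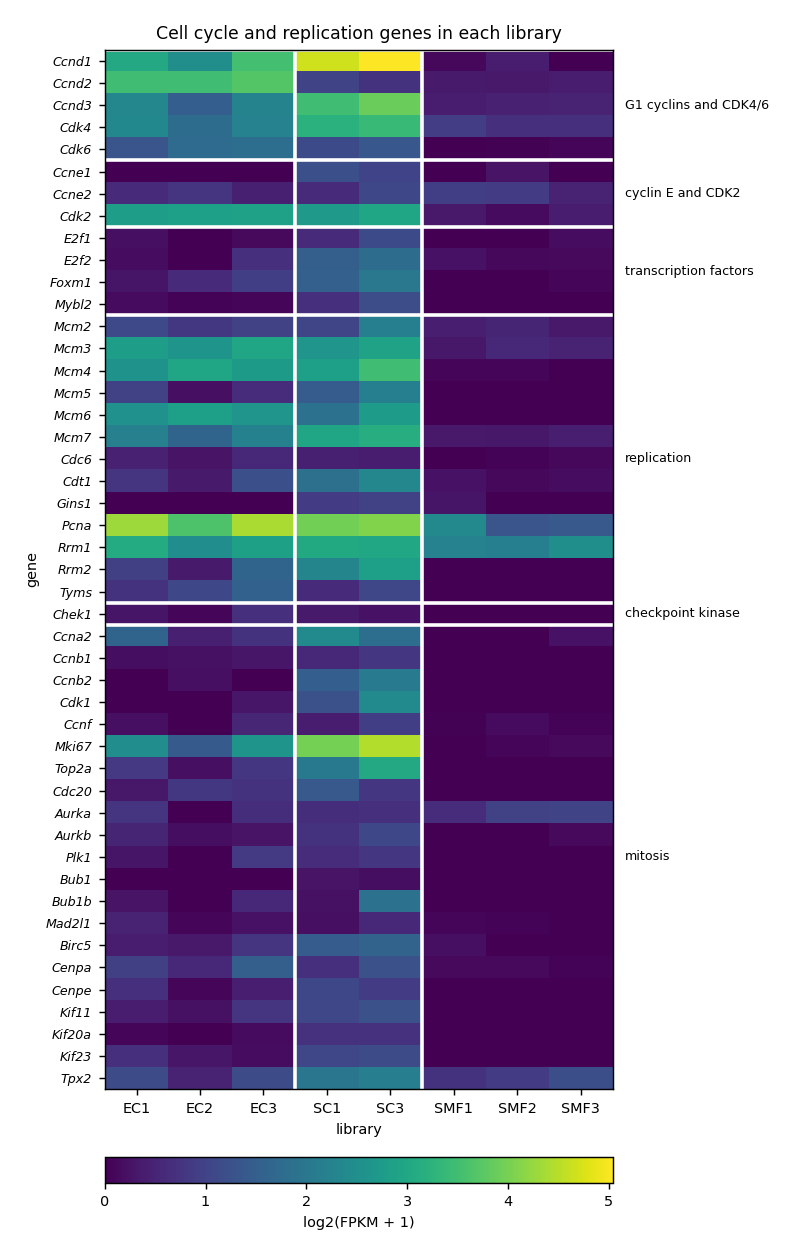
Level of each of the 47 genes (rows, by set) in each of the 8 libraries (columns) as log2(FPKM + 1), dark for low values. SC1 and SC3 are brighter than all EC libraries in 14 of the 21 mitosis rows, though many of these are dim throughout, EC and SC are both bright for Pcna, Cdk2, Mcm3, Mcm4 and Mcm6, and the SMF columns are dark except for rows such as Rrm1 and Pcna.

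The 3 D cyclins did not share an order across populations. Ccnd1, cyclin D1 (chr7:144929931-144939831, RefSeq GRCm38.p6, as for all positions here), stood at 7.28, 4.61 and 10.6 FPKM in EC, at 24.6 in SC1 and 31.9 in SC3, and at 0.0713, 0.309 and 0 in SMF. Every SC library lay above every EC library, and these above SMF, with a log2 difference SC minus EC of 1.84 (SE 0.30, adjusted p = 0.00426, limma). Cyclin D2, Ccnd2 (chr6:127125162-127152188), had the opposite order, at 10.2, 10.2 and 11.9 in EC against 1.04 in SC1 and 0.659 in SC3. The log2 difference was -2.68 (SE 0.17, adjusted p = 2.73e-05), and it was the 1 gene of the 47 called lower in SC than in EC. In fibres Ccnd2 lay between 0.276 and 0.301, and its call of SC over SMF (0.52, adjusted p = 0.0471) had a log2 of -0.0055 after median-of-ratios scaling. Ccnd3, cyclin D3 (chr17:47505051-47599689), followed Ccnd1, at 4.01, 1.85 and 3.78 in EC, 10.2 and 13.8 in SC and 0.329 to 0.426 in SMF (log2 SC minus EC 1.65, SE 0.27, adjusted p = 0.00411). With SC1 as the only SC library, the log2 differences SC minus EC were 1.66 for Ccnd1 and 1.45 for Ccnd3. Neither was then called over all genes.

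The kinases of the D cyclins differed from each other as well. Cdk4 (chr10:127063535-127067288) stood at 4.14, 2.45 and 3.72 FPKM in EC, 8.30 and 9.69 in SC and 0.612 to 0.881 in SMF, so that the populations did not overlap (log2 SC minus EC 1.19, SE 0.21, adjusted p = 0.00615, and 1.09, not called, with SC1 alone). Cdk6 (chr5:3341004-3531008) stood at 1.5, 2.41 and 2.53 in EC and at 1.19 and 1.58 in SC. These ranges overlapped, and the log2 difference of -0.39 (SE 0.22) had adjusted p = 0.257. Both kinases lay above SMF in EC and in SC, where Cdk6 in fibres did not exceed 0.0543. All 5 of these early G1 genes were called higher in SC than in SMF and in EC than in SMF (29.9% and 25.3% of all genes).

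**Figure D3:**
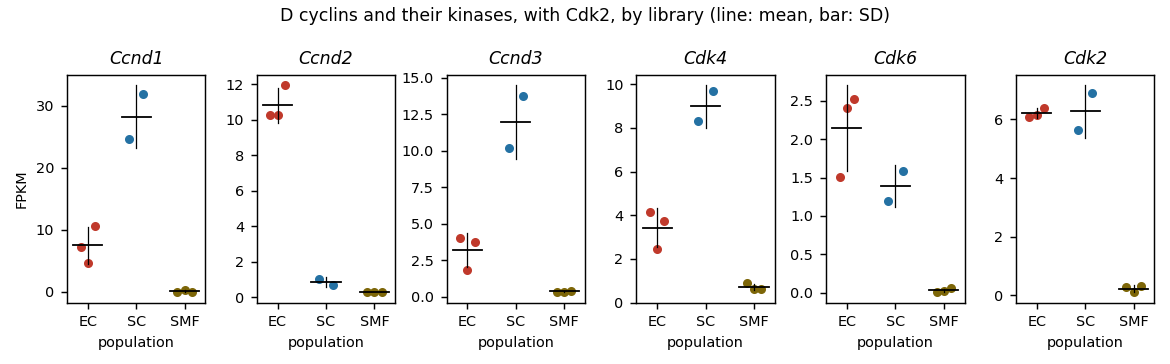
FPKM (y axis, a scale of its own for each gene) of the D cyclins, their kinases and Cdk2 in each library (points) of EC, SC and SMF, with the mean (line) and SD (bar). Ccnd1, Ccnd3 and Cdk4 are highest in SC and Ccnd2 in EC, while EC and SC overlap for Cdk2, which is near 0 in SMF.

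Of the genes of the next step, Cdk2, the kinase of cyclin E (chr10:128697938-128705051), had overlapping values in EC and SC. It stood at 6.08, 6.15 and 6.40 FPKM in EC, 5.64 and 6.92 in SC and 0.106 to 0.306 in SMF. The log2 difference SC minus EC was 0.01 (SE 0.16, adjusted p = 0.99), and both populations exceeded SMF by 2.56 (adjusted p = 1.67e-05 for SC and 4.63e-06 for EC). Cyclin E1, Ccne1 (chr7:38097984-38107490), was listed at 0 in all 3 EC libraries and stood at 1.34 in SC1 and 1.01 in SC3. In fibres it reached 0.194 in SMF2 and was listed at 0 in the other two libraries. The difference of SC from EC was called (adjusted p = 0.00186), as was that from SMF (adjusted p = 0.00125). Cyclin E2, Ccne2, overlapped between all populations, at 0.354 to 0.714 in EC, 0.531 and 1.13 in SC and 0.398 to 0.913 in SMF, and no comparison was called.

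All 4 transcription factors were called higher in SC than in EC and in SC than in SMF (10.8% and 29.9% of all genes). Between EC and SMF, 0 of them were called in the fit over all genes. E2f2, an activator of the E2F family (chr4:136172274-136196057), stood at 0.128, 0 and 0.597 FPKM in EC, 1.88 and 2.45 in SC and 0.0711 to 0.188 in SMF (log2 SC minus EC 1.37, SE 0.24, adjusted p = 0.00611). Its relative E2f1 was lower, at 0.518 in SC1 and 1.19 in SC3 against at most 0.147 in EC (0.75, SE 0.18, adjusted p = 0.026). Without EC2 the call of E2f1 for SC over EC was lost (0.70, adjusted p = 0.0664, limma). Mybl2, which acts with MuvB, stood at 0.625 and 1.27 in SC, at most 0.104 in EC and listed at 0 in every fibre library (0.86, SE 0.17, adjusted p = 0.00941). Foxm1 (chr6:128362994-128375886) stood at 0.225, 0.518 and 0.902 in EC and 1.90 and 3.06 in SC (1.17, SE 0.25, adjusted p = 0.0152, and 0.93, not called, with SC1 alone). In the second deposited table, which holds TPM, Foxm1 stood at 3.38, 2.51 and 3.08 in EC against 2.05 and 5.87 in SC, so that the groups overlapped, with a log2 difference of 0.20 (adjusted p = 0.678). The call for Foxm1 therefore rests on the FPKM table.

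Replication genes fell into some that were higher in SC than in EC and others whose ranges overlapped. In the fit over all genes, 5 of 13 were called higher in SC than in EC (10.8% of all genes), 0 lower (6.64%) and 8 not called, with a median of 0.41. Without SC3, Gins1 alone was higher and Mcm6 was lower, and without EC2 4 were higher. The 6 genes Mcm2 to Mcm7 encode the ring of the replicative helicase, yet did not move as a block. Mcm7 (chr5:138164583-138172111) stood at 3.58, 2.09 and 3.62 FPKM in EC, 6.94 in SC1 and 7.81 in SC3 and 0.251 to 0.35 in SMF, with no overlap (log2 SC minus EC 1.05, SE 0.21, adjusted p = 0.0119). Mcm5 (chr8:75109468-75128439) stood at 0.984, 0.159 and 0.569 in EC and 1.78 and 3.52 in SC with 0 listed in fibres (1.21, SE 0.30, adjusted p = 0.0261). Without EC2 the call of Mcm5 for SC over EC was lost (1.01, adjusted p = 0.0563, limma).

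The other 4 subunits overlapped between EC and SC. Mcm3 (chr1:20802966-20820312) stood at 5.98, 5.11 and 6.76 FPKM in EC and 5.18 and 6.43 in SC (log2 -0.03, SE 0.18, adjusted p = 0.934). Mcm4 stood at 4.90, 6.90 and 5.72 in EC and 6.21 and 10.3 in SC (0.41, adjusted p = 0.253), and Mcm2 at 1.17, 0.764 and 1.00 against 1.06 and 3.49 (0.63, adjusted p = 0.228). For Mcm4 and Mcm2, SC1 lay within the EC range and SC3 above it. Mcm6 (chr1:128331575-128359705), whose promoter with an E2F word is shown above, stood at 4.86, 6.14 and 5.16 in EC, at 2.68 in SC1 and at 5.84 in SC3 (-0.34, SE 0.26, adjusted p = 0.40). The value for SC1 lay below all EC libraries and that for SC3 within them. Mcm3, Mcm4, Mcm6 and Mcm7 were each called higher than SMF in both EC and SC.

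Loading of the helicase and its activation gave mixed results. Cdt1, which loads MCM rings (chr8:122568015-122573130), stood at 0.714, 0.294 and 1.36 FPKM in EC and 2.63 and 4.01 in SC (log2 1.30, SE 0.28, adjusted p = 0.0165). Its partner Cdc6 was low everywhere, at 0.209 to 0.495 in EC and 0.357 and 0.302 in SC (-0.03, adjusted p = 0.912). Gins1, a subunit of the active helicase, was listed at 0 in all EC libraries and stood at 0.870 and 0.967 in SC (adjusted p = 0.0031). With SC1 as the only SC library, Mcm5 (log2 0.86) and Cdt1 (1.06) also lost their calls in the filtered fit.

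Genes of the fork and of nucleotide supply were split in the same way. Pcna, the sliding clamp (chr2:132249286-132253180), stood at 18.8, 11.3 and 20.2 FPKM in EC, 14.6 and 15.9 in SC and 4.16, 1.52 and 1.65 in SMF. SC lay inside the EC range (log2 -0.09, SE 0.35, adjusted p = 0.881), and both exceeded SMF (2.32 for SC, adjusted p = 0.00135, and 2.41 for EC, adjusted p = 0.00053). The subunits of ribonucleotide reductase, which makes deoxynucleotides, went apart. The small subunit Rrm2 (chr12:24708254-24714146) stood at 0.949, 0.283 and 2.08 in EC and 3.93 and 6.17 in SC with 0 listed in all fibres. It differed between SC and EC by 1.59 (SE 0.36, adjusted p = 0.0182, and 1.32, not called, in the filtered fit with SC1 alone). For the large subunit Rrm1 (chr7:102441695-102469771) values were 7.61, 4.54 and 6.27 in EC, 7.39 and 7.10 in SC and 3.70, 3.51 and 4.68 in SMF, with no call between SC and EC (0.23, adjusted p = 0.467). Tyms, thymidylate synthase, stood at 0.677, 1.13 and 1.96 in EC and 0.541 and 1.11 in SC, with 0 listed in fibres (SC minus EC -0.29, adjusted p = 0.486). Chek1, a kinase of the replication checkpoint, did not exceed 0.623 in any library, and no comparison was called.

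Mitosis genes lay more on 1 side. In the fit over all genes, 8 of 21 were called higher in SC than in EC (10.8% of all genes), 0 lower (6.64%) and 13 not called. The share called higher was close to that of replication genes (5 of 13). The median difference was 0.64 against 0.14 for all genes. It was positive in 20 of 21 mitosis genes, where it was positive in 8 of 13 replication genes. Every SC library exceeded every EC library in 14 of 21, where this held for 5 of 13 replication genes and for 22.1% of all genes. Without EC2 calls were 7, as Kif23 lost its call. With SC1 as the only SC library, Mki67, Tpx2 and Kif23 lost their calls. Bub1 and Ccnb1 then gained them at 0.200 and 0.495 FPKM in SC1, with the spread taken from EC and SMF alone. Mki67, the proliferation marker Ki-67 (chr7:135689784-135716450), stood at 4.52, 1.68 and 5.09 FPKM in EC, 14.8 in SC1 and 20.9 in SC3 and at most 0.0916 in SMF. The log2 difference SC minus EC was 2.05 (SE 0.35, adjusted p = 0.00499), and 1.82 with SC1 alone. Top2a, topoisomerase II alpha (chr11:98992947-99024199), stood at 0.775, 0.159 and 0.728 in EC and at 3.1 and 7.29 in SC (log2 SC minus EC 1.93, SE 0.33, adjusted p = 0.00519).

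The kinase of mitotic entry and its B cyclins did not exceed 0.236 FPKM in EC. Cdk1 (chr10:69335146-69352912) was listed at 0 in EC1 and EC2, stood at 0.228 in EC3, and reached 1.38 in SC1 and 4.33 in SC3 (log2 1.73, SE 0.32, adjusted p = 0.00767). Its partner Ccnb2, cyclin B2 (chr9:70407689-70421554), was listed at 0 in EC1 and EC3, stood at 0.153 in EC2 and reached 1.82 and 3.25 in SC (1.72, SE 0.21, adjusted p = 0.00106). Both were listed at 0 in every fibre library. Ccnb1, cyclin B1, lay lower, at 0.143 to 0.236 in EC and 0.495 and 0.739 in SC, and missed the threshold (0.45, adjusted p = 0.0549). Those SC values correspond to about 11 and 15 reads of 50 bases, where Mki67 had about 934 and 1171. Some called genes rested on similarly few SC reads, such as Kif20a (about 14 and 13), E2f1 (10 and 21) and Ccnb2 (18 and 28). Ccna2, cyclin A2 (chr3:36564865-36573038), was the gene with SC1 (4.33) above SC3 (2.51) by the most in FPKM, against 2.07, 0.367 and 0.658 in EC. It was not called over all genes (1.18, SE 0.36, adjusted p = 0.0618) but was in the filtered fit (adjusted p = 0.0331).

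Among genes of the spindle and of cytokinesis, Tpx2, a spindle assembly factor (chr2:152847964-152895321), stood at 1.23, 0.422 and 1.23 FPKM in EC and 2.95 and 3.46 in SC (log2 1.13, SE 0.26, adjusted p = 0.0214). It was also present in fibres, at 0.658, 0.826 and 1.32, so that EC and SMF overlapped (0.00, adjusted p = 1). Birc5, survivin, stood at 0.308, 0.276 and 0.720 in EC and 1.77 and 2.03 in SC (1.03, SE 0.21, adjusted p = 0.0119), but in the TPM table at 0.705, 0.761 and 1.54 in EC against 1.19 and 4.70 in SC, with overlap (0.84, adjusted p = 0.116). The kinesin genes Kif23 (0.118 to 0.633 in EC, 1.10 and 1.22 in SC, adjusted p = 0.043) and Kif20a (at most 0.10 in EC, 0.646 and 0.642 in SC, adjusted p = 0.00568) were called. Kif11, the motor that separates spindle poles, stood at 0.164 to 0.702 in EC and 1.11 and 1.39 in SC and fell just outside (0.70, adjusted p = 0.0523). In the filtered fit Kif11 and Kif23 had adjusted p = 0.0353 and 0.0327, and each lost its call under most of the alternatives tried.

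The remaining mitosis genes were low and not called between SC and EC. Aurkb (0.136 to 0.432 in EC, 0.669 and 1.13 in SC), Cenpe (0.0606 to 0.606 against 1.14 and 0.859) and Bub1 (listed at 0 in EC, 0.20 and 0.132 in SC) kept SC above EC in every library, with adjusted p = 0.0654, 0.0944 and 0.0906. In the TPM table Cenpe overlapped, at 1.20, 0.472 and 1.12 in EC against 0.989 and 1.70 in SC. FPKM values of the groups overlapped for Cdc20, an activator of the anaphase-promoting complex, for the polo-like kinase Plk1, for Ccnf and Aurka and for the checkpoint genes Mad2l1 and Bub1b. Cdc20 stood at 0.258, 0.768 and 0.665 in EC and 1.65 and 0.730 in SC, and Plk1 at 0.211, 0 and 0.818 against 0.562 and 0.727 (adjusted p = 0.236 and 0.376). Ccnf, which encodes an F-box protein, reached 0.458 in EC and 0.909 in SC, and Mad2l1 0.419 and 0.503. Bub1b had most of its signal in 1 library, at 2.73 in SC3 against 0.172 in SC1 and at most 0.50 in EC. Cenpa, the histone variant of centromeres, was the mitosis gene without a positive difference, at 0.946, 0.473 and 1.86 in EC and 0.602 and 1.38 in SC (-0.05, adjusted p = 0.943).

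**Figure D4:**
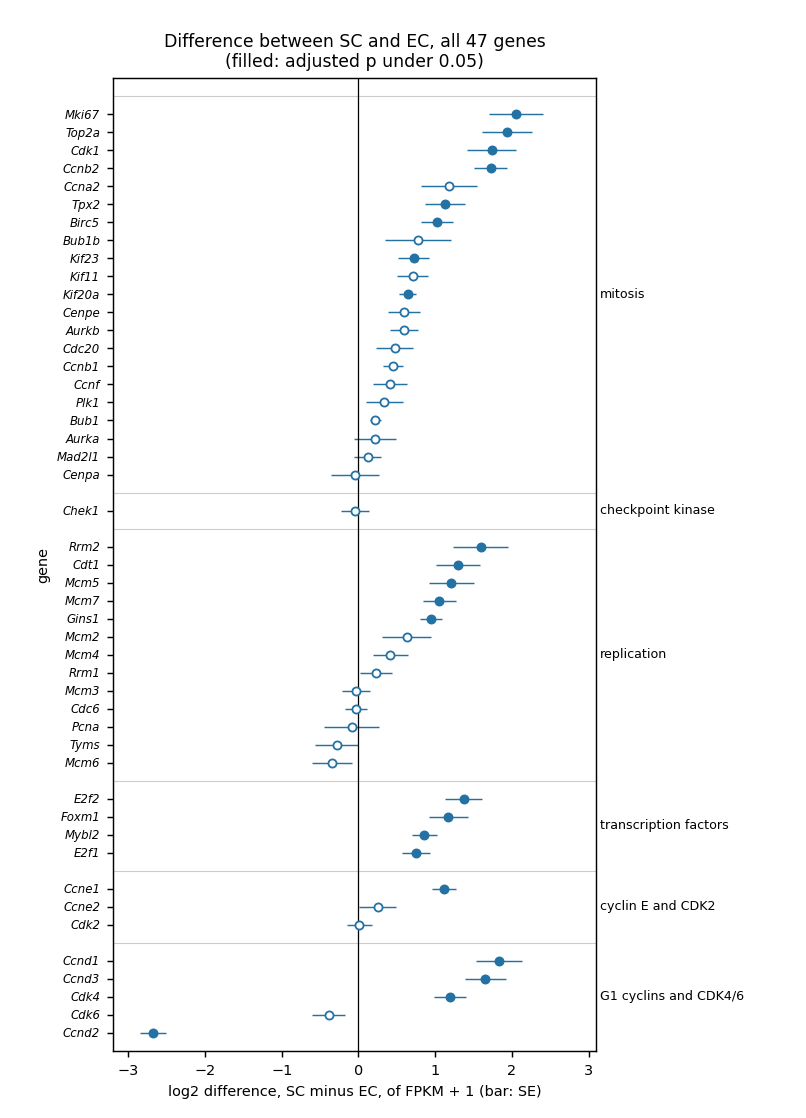
Log2 difference SC minus EC of FPKM + 1 (x axis, bar: SE) for each of the 47 genes, ordered within their sets, with filled points for adjusted p under 0.05 in the fit over all genes. In the mitosis set 20 of 21 points lie above 0, replication points run from -0.34 (Mcm6) to 1.59 (Rrm2), and Ccnd2 lies alone at -2.68.

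Summed over each set, replication overlapped between EC and SC and mitosis did not. The 13 replication genes summed to 50.6, 38.9 and 55.2 FPKM in EC, 54.2 in SC1 and 73.0 in SC3, and 6.34 to 9.18 in SMF. The 21 mitosis genes summed to 14, 5.12 and 15.4 in EC, 39.6 in SC1 and 57.5 in SC3, and 1.54 to 2.82 in SMF. Without Mki67, the highest of them, the sums were 9.47, 3.44 and 10.3 in EC and 24.8 and 36.6 in SC. The ratio of the mitosis sum to the replication sum, which scaling of a library does not alter, was 0.276, 0.131 and 0.279 in EC and 0.730 and 0.788 in SC, and 0.168, 0.329 and 0.373 in SMF. SC1 and SC3 differed in level but lay close in this ratio, above every EC and SMF library. These sums are descriptions and were not tested.

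Markers of other cell types differed between the libraries as well. Of the 9 table entries of 8 leukocyte markers, 8 lay below EC1 and EC3 in EC2, as did 15 of 21 mitosis genes and 9 of 13 replication genes. This held for 33.2% of all genes and 46.6% of those that passed the filter. The leukocyte sum was 62.3, 15.4 and 86.6 FPKM in EC, 28.6 and 37.1 in SC and 1.49 to 4.76 in SMF. Ptprc, the pan-leukocyte gene CD45, stood at 0.778, 0.0261 and 1.07 in EC and 0.143 and 0.432 in SC. Pericyte and smooth muscle markers summed to 580, 226 and 698 in EC and to 218 and 273 in SC, with all 8 lowest in EC2. Most of that sum was Rgs5 in EC and Acta2 and Notch3 in SC, and the markers did not share a direction. Rgs5 (11.7 and 4.81 in SC, at least 153 in EC), Pdgfrb, Abcc9, Kcnj8 and Myh11 were lower in SC. Acta2 (135 and 194 in SC, at most 65.6 in EC) and Notch3 (58.8 and 68.7, at most 21.6) were higher, and Cspg4 overlapped. Itgam was listed at 0 in EC2, and no other marker of either list was at 0 in an EC library. Erythroid markers summed to 575, 270 and 582 in EC and to 113 and 64.6 in SC, again lowest among EC libraries in EC2. Markers of fibro-adipogenic progenitors summed to 257 and 253 in SC against 170, 122 and 200 in EC, but did not share a direction. Col3a1 (108 and 113 in SC, at most 25.6 in EC) and Dpt (103 and 95.5 against at most 4.17) were higher in SC. Ly6a was lower in SC (1.65 and 1.09 against 94.5 to 116), and Dcn, Lum, Col1a1 and Pdgfra overlapped. In SC, the leukocyte sum lay between those of EC2 and EC1. Most of that sum was Lyz2, at 22.8 and 24.4 in SC, 7.94 in EC2 and 43.7 in EC1, so the order is largely that of 1 gene. The part of these cells in the levels of the cell cycle genes was not tested.

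**Figure D5:**
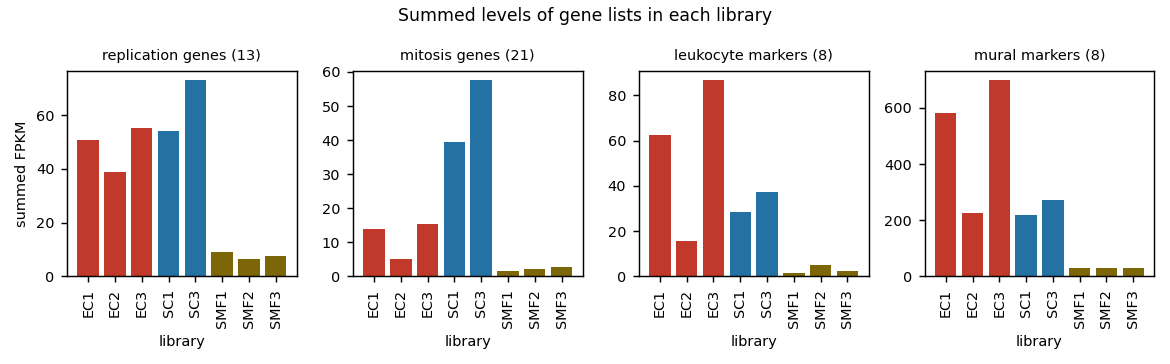
Summed FPKM (y axis, a scale of its own for each panel) of the replication genes, mitosis genes, leukocyte markers and mural (pericyte and smooth muscle) markers in each library. The mitosis sum is highest in SC1 and SC3 (39.6 and 57.5), while EC2 is the lowest EC library in all 4 panels.

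In fibres, most of these genes were low. Of the 47, 17 were listed at 0 in all 3 SMF libraries (36.2%, against 39.7% of all genes) and 41 stayed under 0.5 FPKM in each (87.2% against 65.5%). Pcna and Rrm1 were the 2 at 1 or more in every fibre library (4.3% against 18.8%). By set, 12 of 13 replication genes and 14 of 21 mitosis genes were called higher in SC than in SMF over all genes, as were 29.9% of all genes. EC exceeded SMF in 6 of 13 replication genes and in 2 of 21 mitosis genes, Mki67 (log2 2.10, SE 0.31, adjusted p = 0.00106) and Cenpa (0.91, SE 0.28, adjusted p = 0.0388), where 25.3% of all genes were called higher. Without EC2 these counts were 10 and 5. Besides Mki67 and Cenpa, the genes called higher in EC than in SMF were the 5 early G1 genes, Cdk2, Mcm3, Mcm4, Mcm6, Mcm7, Pcna and Tyms. All of these together were 14 of the 47, a share near the 25.3% of all genes.

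Rrm1 was the replication gene with the highest mean FPKM in fibres, 3.96. Its SC minus SMF difference of 0.74 (SE 0.21, adjusted p = 0.0282) was -0.607, -0.318 and -0.148 after the 3 scalings, and EC minus SMF of 0.51 (adjusted p = 0.0839) was -0.678, -0.544 and -0.0684, so that its direction against fibres depended on the scaling. Aurka, the kinase of spindle poles, overlapped between fibres (0.561, 0.978 and 1.05 FPKM), EC (0.691, 0 and 0.577) and SC (0.585 and 0.634), with adjusted p = 0.583 for SC and 0.289 for EC. In the TPM table SC lay above both, at 1.49 and 1.26 against at most 0.585 in EC and at most 0.895 in SMF, so the overlap of SC rests on the FPKM table. Cdk4 stood at 0.612 to 0.881 in fibres but stayed below both sorted populations.

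Other genes of the same pathways were counted from lists that hold none of the 47. Of 29 other replication genes that passed the filter (of 42 listed), 10 were higher in SC than in EC, 2 lower and 17 not called (21.2% and 16.4% of all genes in that fit). Over all genes, 9 of 41 were higher and 2 lower (10.8% and 6.64% of all genes). The adjusted p-values of these other pathway genes are from the filtered fit. Without SC3, 6 were higher, as were 6 after median-of-ratios scaling and 4 when the total left out the most abundant genes. Tipin, a fork protection gene, stood at 6.79, 8.73 and 6 FPKM in EC and 14.2 and 18.0 in SC (log2 1.07, adjusted p = 0.0069). Its binding partner Timeless went the other way, at 8.19, 10.2 and 11.4 in EC and 1.75 and 1.90 in SC with 0 listed in fibres (-1.94, SE 0.16, adjusted p = 7.31e-05). Pola2, a subunit of DNA polymerase alpha, was the second gene lower in SC (-1.36, adjusted p = 0.0193). Orc2 and Orc6 of the origin recognition complex were higher in SC (0.70, adjusted p = 0.0119, and 1.11, adjusted p = 0.0237), as was Pold3 of DNA polymerase delta (0.56, adjusted p = 0.0272). Over all genes Pold3 was not called (adjusted p = 0.0725).

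Of 20 other mitosis genes that passed (of 51 listed), 14 were higher in SC than in EC, 1 lower and 5 not called (21.2% higher and 16.4% lower in that fit). Over all genes 19 of 51 were higher and 1 lower (10.8% and 6.64% of all genes). Both counts of higher genes include Ube2c, whose gene level is set beside its listed transcript below. Smc4, a condensin subunit, stood at 9.21, 12.9 and 10.7 FPKM in EC, 15.5 and 17.3 in SC and 0.80 to 0.935 in SMF (log2 SC minus EC 0.56, adjusted p = 0.0313 in the filtered fit and 0.0565 over all genes, where it was not called). Cdc25b, a phosphatase that activates CDK1 (1.57, adjusted p = 0.00438), and Cks1b, a CDK subunit (2.11, adjusted p = 0.00441), were also higher. Pttg1, securin, was the gene lower in SC, at 2.67, 2.46 and 2.16 in EC and 0.430 and 0.989 in SC (-1.02, adjusted p = 0.00566). Against SMF, SC exceeded in 19 of 29 replication and 19 of 20 mitosis genes, and EC in 19 and 13, where 56.5% and 55.5% of all genes in the filtered fit were called higher. Both lists had 1 gene called lower than SMF. Rpa1, a single-strand binding protein, stood at 6.13, 5.20 and 5.28 in SMF and 3.05 to 3.98 in EC (EC minus SMF -0.55, adjusted p = 0.0103).

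The other, Ube2c, a ubiquitin-conjugating enzyme of the anaphase-promoting complex, was listed at 736, 755 and 817 FPKM in SMF, 5.62 and 9.77 in SC and at most 1.32 in EC. Its 1 listed transcript, on the plus strand of chr2:164769898-164772907, had only 0, 1.79 and 0.365 FPKM in the same fibre libraries. At gene level Ube2c was also called higher in SC than in EC (log2 2.34, adjusted p = 0.00191, limma, filtered fit). The listed transcript stood at 0 in SC1 and 0.906 in SC3, against 0, 0 and 1.40 in EC. Tnnc2, the fast troponin C gene of muscle, lies on the minus strand at chr2:164777161-164779967 and stood at 2800, 3009 and 3024 in SMF. The sources used here do not say whether reads were assigned by strand, and whether fragments near Tnnc2 entered the gene level of Ube2c was not tested.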

How the data were processed

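RNA of 8 libraries was sequenced as pairs of 50 bp from 10 ng of total RNA with a stranded random-primed kit and removal of ribosomal sequences, per the labels' protocols. Reads went through FastQC, Trimmomatic, HISAT2, bedtools and StringTie, on build mm10, tools named without role, order or version, per the submitters' processing notes. The deposited gene table holds FPKM, the deposited second table TPM, and the deposited transcript table FPKM and read coverage, all made by the authors. Groups and replicate numbers came from the sample titles and descriptions.

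Genes were matched by symbol. limma 3.58.1 (R 4.3.3) with a mean-variance trend was fitted on log2(FPKM + 1) with all 8 libraries, 1 mean for each population and no covariate, two-sided, with Benjamini-Hochberg adjustment over all genes tested. The planned fit took the 16700 genes that reached 1 FPKM in 2 or more libraries. The same fit over all 36048 genes, planned as an alternative, is given first because 17 of the 47 genes did not pass. The calculation was tested on simulated data. The 47 genes and all lists were chosen with earlier results of these data known. Named were all 47 genes and, of the other pathway genes, up to 4 called in each comparison and direction with the highest mean FPKM; Rfc1, Mad1l1 and Bub3, called over SMF by that rule, are named here only. Depth was estimated as the median ratio of deposited coverage to FPKM over transcripts. Estimated reads were given where at least 3 libraries shared 1 length (35 genes). Same-numbered libraries of different populations did not deviate together (correlations -0.058 to 0.091 over 7 pairs, against -0.091 to 0.058 over 14 other pairs). Promoters and positions came from RefSeq (GRCm38.p6, the assembly that mm10 names). Alternatives covered the pseudocount, filter, scaling, libraries in the fit, replicate block, variance trend and each library left out. The TPM table and the fits over all genes without SC3 or EC2 were chosen after seeing the data.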

Additional observations from a re-analysis of the deposited data

How the results depend on the processing

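In the filtered fit, the count of the 47 genes higher in SC than in EC was lowest without SC3 (12). That of SC over SMF was lowest after median-of-ratios scaling (23), and that of EC over SMF ran from 14 with a library left out to 25 with a pseudocount of 0.1. When each library was left out in turn, 12 to 19 were higher and 1 to 2 lower in SC than in EC, of them 1 to 6 replication genes higher and 0 to 1 lower and 5 to 8 mitosis genes higher. Over all genes, leaving out SC3 or EC2 gave 12 to 18 higher and 1 to 2 lower, and for replication 1 to 4 higher and 0 to 1 lower. EC exceeded SMF in 17 to 22 of the 47, 8 to 10 of them replication and 3 to 5 mitosis genes. Mitosis genes called higher in EC than in SMF numbered 3 in the filtered fit and 1 to 6 with a library left out, 7 and 6 with a pseudocount of 0.1 and 0.5, 5 with only the 2 groups, 5 without the variance trend and 6 in the TPM table.

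Among other replication genes, those higher in SC than EC numbered 6 with a pseudocount of 0.1, 6 after median-of-ratios scaling, 4 without the most abundant genes and 6 to 11 with a library left out. Those lower numbered 1 with only the 2 groups and 1 to 2 with a library left out. Other mitosis genes lower in SC than EC were 0 with a pseudocount of 0.1. Against SMF, SC exceeded in 32 other mitosis genes with no filter and 31 with FPKM of at least 0.3, in 16 mitosis genes with the latter filter, and in 7 replication genes after median-of-ratios scaling. SC then fell below SMF in 1 of the 47, a replication gene, and in 3 other replication genes (1 under each of the other 2 scalings). EC fell below SMF in 2 of the 47 after median-of-ratios and upper-quartile scaling, 1 replication and 1 mitosis gene. Other replication genes higher in EC than SMF were 12 and 12 under these 2 scalings, and lower ones 4 and 2, 1 to 2 with a library left out and 0 in the TPM table. Other mitosis genes higher in EC were 8 after upper-quartile scaling.

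Whether the numbers pair the libraries is not stated. The correlations above cannot exclude it, since the deviations of SC1 and SC3 mirror each other. With the replicate block, 16 of the 47 were higher in SC than EC, 28 in SC than SMF and 19 in EC than SMF, against 19, 30 and 18 without it, and Ccna2, Kif11 and Kif23 lost their calls between SC and EC, and Ccnd2 and Cenpa those between SC and SMF.

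Directions turned mostly where differences were small. SC minus EC turned for Cdk2 (-0.140 after median-of-ratios scaling, -0.293 without the most abundant genes, -0.0315 with the replicate block, -0.118 to 0.135 with a library left out, turned without EC1, -0.00404, or SC3), Mcm3 (-0.162 to 0.103 with a library left out, turned without EC3, 0.0537, or SC1), Mcm6 (-0.788 to 0.104, turned without SC1), Pcna (-0.336 to 0.0566, turned without EC1, 0.00717, or EC3), Rrm1 (-0.0799 without the most abundant genes) and Cenpa (-0.332 to 0.240, turned without EC3, 0.206, or SC1, and 0.123 in the TPM table). SC minus SMF turned for Ccnd2 (-0.00547 after median-of-ratios scaling) and Rrm1 (-0.607, -0.318 and -0.148 under the 3 scalings). EC minus SMF turned for Rrm1 (-0.678, -0.544 and -0.0684), E2f2 (-0.0859 and -0.0569 after median-of-ratios and upper-quartile scaling, -0.0724 to 0.265 with a library left out, turned without EC3) and Tpx2 (-0.0360 and -0.00556 with pseudocounts of 0.1 and 0.5, -0.722, -0.629 and -0.353 under the 3 scalings, -0.105 to 0.220 with a library left out, turned without EC1, EC3, SMF1 or SMF2). The cause of these changes was not tested. Genes under about 1 FPKM rest on few reads, and differences between such low values were often not detectable at this depth.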
